A study of Mus musculus with 33 samples.

Results

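Binding of p53 was followed in mouse lymphoma cells at 4 stretches of the genome around genes that take part in cell cycle arrest: Cdkn1a, Btg2, Gadd45a and Plk2. Each gene was represented by a fixed window in the mouse build mm9, and its members were all p53 peaks that shared at least 1 bp with the window. The windows were chr17:29215000-29260000 for Cdkn1a, chr1:135950000-136000000 for Btg2, chr6:66960000-67010000 for Gadd45a and chr13:111160000-111220000 for Plk2. They held 206 of the 102916 peaks in the 26 deposited peak lists. After overlapping peaks of different lists were merged, these peaks formed 18 sites out of 18927. The sites are numbered within each window by rising coordinate. No gene annotation of mm9 was at hand, so a site is given by its window and position, and its place relative to exons and start sites was not analysed here.

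The tumours were lymphomas of B cells from Eµ-myc mice of the strain C57/Bl6. These mice carry Myc under an immunoglobulin enhancer active in B cells. Tumours 1 to 4 had the genotype Trp53(KI/delta), in which a knock-in allele (KI), whose p53 function is restored by 4-hydroxytamoxifen (OHT), faces a deleted allele. Their cells received EtOH at 1 volume per 1000 or 100 nM OHT for 2 h, and each treatment gave 4 lists. Tumours 5 to 7 were Arf-/- Trp53+/+ and gave 3 lists for each of 6 conditions. These were untreated cells, water at 1 volume per 1000, DMSO at 0.5 volumes per 1000, 1 µM doxorubicin, and (+)-Nutlin or (-)-Nutlin at 5 µM, all but the first for 3 h. All tumours therefore carried the Myc transgene, and all tumours given Nutlin or doxorubicin lacked Arf, an inhibitor of Mdm2. Lists with the same tumour number come from cells of the same tumour. The labels do not say whether each tumour came from a separate mouse, so a spread between tumours may not be one between mice. Except where tumours are paired or permuted within, p-values measure the spread between lists, and lists of 1 tumour are not independent. Cells came from pressed lymph nodes and were not purified further, and peak positions cannot check the labelled cell type.

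p53 is a transcription factor that Mdm2 holds at a low level, and in stressed cells it accumulates and activates genes of arrest, repair and death. Doxorubicin damages DNA. Nutlins are small molecules made as a pair of mirror-image forms, of which (-)-Nutlin blocks the binding of Mdm2 to p53 and (+)-Nutlin serves as the inactive control. Cdkn1a encodes p21, the inhibitor of cyclin-dependent kinases through which p53 stops the cycle before DNA replication. Gadd45a encodes a small protein of growth arrest after DNA damage. Btg2 encodes an antiproliferative protein that promotes the removal of poly(A) tails from mRNA, and Plk2 a polo-like kinase that is itself a target of p53.

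The Cdkn1a promoter is shown because it carries a recognisable p53 response element. In RefSeq's promoter table of the later build GRCm38.p6, Cdkn1a has 2 start sites, 2790 bp apart. The 250 bases before the upstream start, at chr17:29090729-29090978 on the plus strand, read as follows, with capitals marking the 20 bases closest to the p53 consensus element.
Cdkn1a, upstream start: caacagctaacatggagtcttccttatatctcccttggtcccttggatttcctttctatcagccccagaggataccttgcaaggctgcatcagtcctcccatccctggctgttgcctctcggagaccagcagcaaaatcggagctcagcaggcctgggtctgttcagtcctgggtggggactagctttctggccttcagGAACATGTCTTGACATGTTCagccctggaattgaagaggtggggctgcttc
The element lies 51 to 32 bases upstream of the start and departs from the consensus at 1 of 20 bases, position 11 counted from its 5′ end. The search covered both strands of each 300-base promoter (250 bases before to 50 after the start) for a pair of adjoining p53 half-sites. A match with at most 1 departure was present in 29 of 32851 RefSeq promoters, or 0.0883%. Best matches were weaker in the other promoters. Gadd45a had 3 departures, a level that 6.29% of promoters reach, Btg2 had 4 (30.2% of promoters), and Plk2 and the downstream Cdkn1a start had 5 (76.6% of promoters). The best Gadd45a stretch is given for contrast, with capitals on all of its bases.
Gadd45a, best match: AAACTACCTAGAGCTGGCTC
A match is a description of these letters, and since builds differ, its position relative to the mm9 peaks was not determined.

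The deposited lists give the position of each peak and no score, height or read depth. They fall into 2 kinds that change together with treatment. In 12 lists the narrowest peak had 52 to 54 bp and the median width was 68 to 111 bp, and in the other 14 lists these values were 278 to 391 bp and 417 to 552 bp. The narrow lists were those of EtOH and, in tumours 6 and 7, of untreated cells, water, DMSO and (+)-Nutlin, and they held 116 to 2180 peaks. All OHT, doxorubicin and (-)-Nutlin lists and every list of tumour 5 were wide and held 1694 to 11346 peaks. The kind of list and the treatment cannot be told apart in KI tumours. Tumour 5, in which all 6 lists are wide, gives the comparison within 1 kind and is given beside the results. Its lists still differ in length. They held 1694 to 2696 peaks for untreated cells, water, DMSO and (+)-Nutlin, 11346 for doxorubicin and 10503 for (-)-Nutlin. In all tumours, peaks covered 1.83 to 6.53 Mb in OHT, doxorubicin and (-)-Nutlin lists and 0.015 to 1.44 Mb in the others. The part of list length in the results was not tested.

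Across the windows, Cdkn1a and Btg2 had a p53 peak in 23 of 26 lists each, Plk2 in 15 and Gadd45a in 7. The Cdkn1a window held 75 peaks at 5 sites, the Btg2 window 98 at 8 sites, the Plk2 window 26 at 3 sites and the Gadd45a window 7 at 2 sites. The 10 lists of the activating treatments, OHT, doxorubicin and (-)-Nutlin, had a peak in the Cdkn1a and Btg2 windows in every case, in the Plk2 window in 8 and in the Gadd45a window in 7. Among the 16 other lists, 13 had a Cdkn1a peak, 13 a Btg2 peak, 7 a Plk2 peak and 0 a Gadd45a peak. The windows thus ranged from peaks called in some list of every condition (Cdkn1a) to peaks called only in lists of the activating treatments (Gadd45a). The activating lists without a Gadd45a peak were the shortest of the 10. They were OHT of tumours 1 and 2 and (-)-Nutlin of tumour 7, with 4102, 3597 and 5617 peaks. Over the whole series, 12548 sites were called in (-)-Nutlin or DMSO lists and 2852 in (+)-Nutlin or DMSO lists. The share of all sites called with activating treatments alone was not computed, so such calls are not shown to be particular to these windows.

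**Figure D1:**
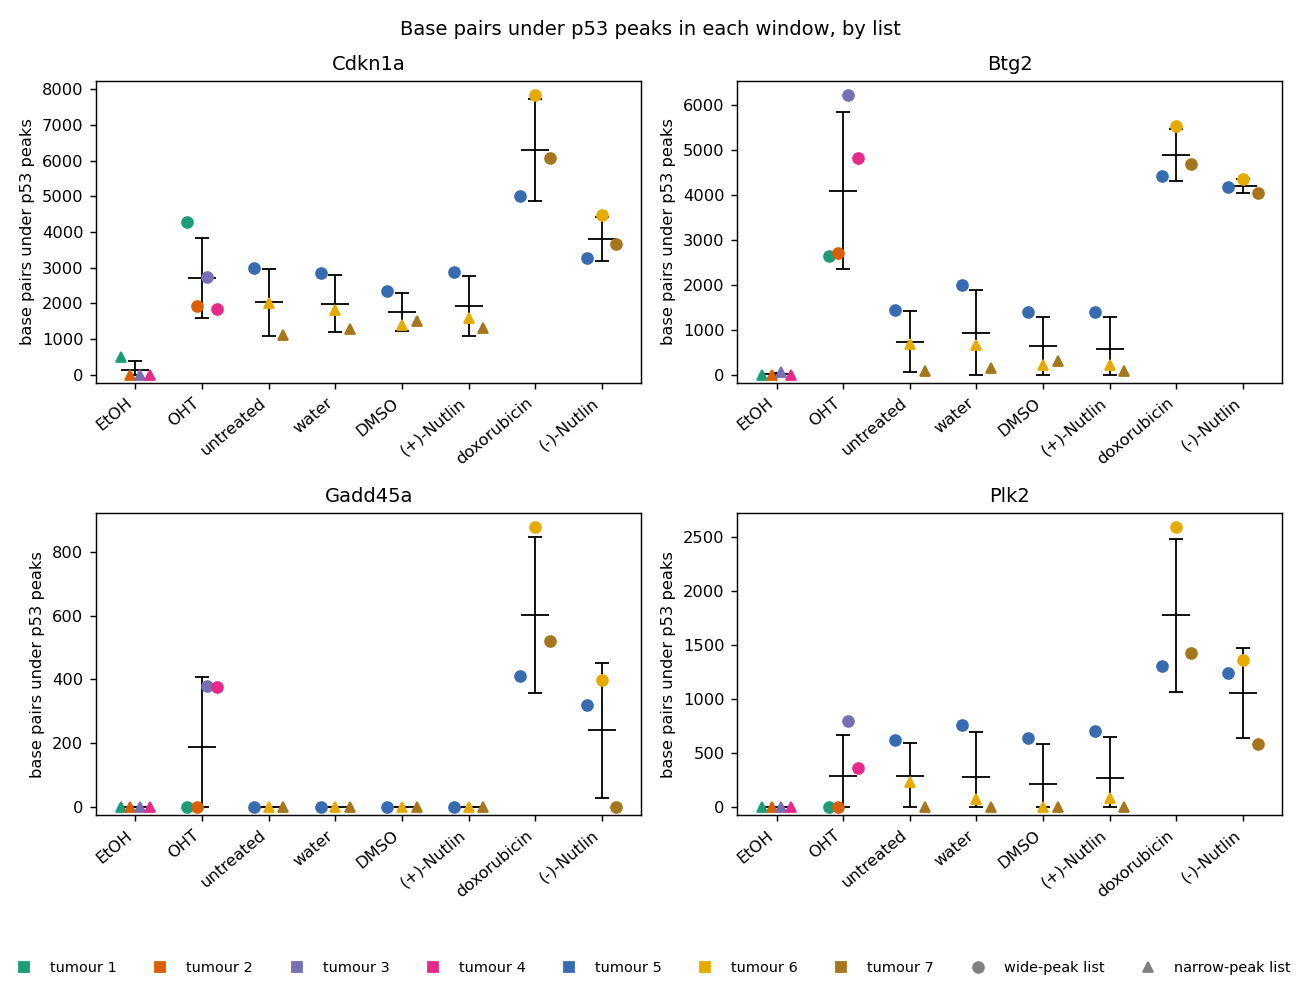
Base pairs under p53 peaks (vertical axis) in each window for each of the 26 lists, by treatment; colour marks the tumour, circles are wide-peak lists, triangles narrow-peak lists, and bars give the mean and SD, with the lower end stopped at 0. In the Gadd45a window, lists other than OHT, doxorubicin and (-)-Nutlin lie at 0, whereas in the Cdkn1a window all 18 lists of Arf-/- tumours lie above 0.

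Cdkn1a had p53 peaks in every list of the Trp53+/+ tumours, treated or not. Base pairs under peaks (covered length) were 500, 0, 0 and 0 in the EtOH lists of tumours 1 to 4, and 4271, 1936, 2737 and 1848 in their OHT lists. In tumours 5, 6 and 7 the covered length was 2976, 2003 and 1105 bp in untreated cells, 2861, 1822 and 1280 bp with water, 2355, 1389 and 1508 bp with DMSO, and 2882, 1574 and 1298 bp with (+)-Nutlin. The OHT lists lay above all EtOH lists, as they also did in base pairs under all their peaks. Within the control and (+)-Nutlin conditions tumour 5 had the highest value each time. Doxorubicin lists covered 5001, 7845 and 6078 bp, and (-)-Nutlin lists 3271, 4489 and 3674 bp. Each of these 6 lists exceeded every untreated, water, DMSO and (+)-Nutlin list, as it also did in base pairs under all its peaks.

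Cdkn1a sites 1 and 3 were called in all 22 lists of OHT-treated KI cells and of Arf-/- tumours, and the other 3 sites in lists of the activating treatments alone. Site 1, chr17:29215084-29216720, begins just inside the lower edge of the window and was the most recurrent, with a peak in 23 lists. It was present in the EtOH list of tumour 1, all OHT lists and all 18 lists of Arf-/- tumours. Its widest peak had 306 bp with EtOH in tumour 1 and 1445, 1076, 1209 and 729 bp with OHT in tumours 1 to 4. In tumour 5 it had 636 bp untreated, 700 bp with water, 641 bp with DMSO, 797 bp with (+)-Nutlin, 1099 bp with doxorubicin and 760 bp with (-)-Nutlin. Within this tumour the doxorubicin peak was the widest, while the (-)-Nutlin peak was within the range of the controls and (+)-Nutlin.

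Site 3 of Cdkn1a, chr17:29225955-29230893, was picked out once its values had been seen, because its peaks were among the widest of many lists. It lies 11.9 kb from site 1, centre to centre, and had a peak in all 4 OHT lists, all 18 lists of Arf-/- tumours and 0 EtOH lists. In tumours 1 to 4 the OHT peaks had 1461, 860, 960 and 530 bp. In the Arf-/- tumours the width ranged from 824 bp (DMSO, tumour 7) to 4054 bp (doxorubicin, tumour 6), and the latter was the second widest of that list's 8250 peaks, at rank 2. Its percentile of peak width within the list ranged from 96.9 to 99.99 over the Arf-/- lists and was 70.0 in OHT tumour 4. In tumour 5 the peak had 2340 bp untreated, 1678 bp with water, 1714 bp with DMSO, 2085 bp with (+)-Nutlin, 2200 bp with doxorubicin and 1856 bp with (-)-Nutlin. Doxorubicin and (-)-Nutlin thus gave wider peaks than their own solvents, but not than untreated cells, and (-)-Nutlin no wider a peak than (+)-Nutlin. In tumours 6 and 7, whose control lists are narrow, doxorubicin and (-)-Nutlin gave wider peaks than all 4 other conditions (824 to 1102 bp). The doxorubicin peaks had 4054 and 2929 bp and the (-)-Nutlin peaks 2120 and 1928 bp.

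The remaining Cdkn1a sites were called with OHT, doxorubicin or (-)-Nutlin alone, whose lists are all longer than the others. Site 4, chr17:29230977-29232014, had a peak in 6 lists, namely 1 OHT, 3 doxorubicin and 2 (-)-Nutlin lists, with widths of 415 to 1025 bp. Site 5, chr17:29232099-29232786, lies 16.5 kb from site 1 and had a peak in 9 lists, 3 of each treatment, with widths of 318 to 676 bp. Site 2, chr17:29218800-29219202, was called in 1 list, (-)-Nutlin of tumour 6.

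**Figure D2:**
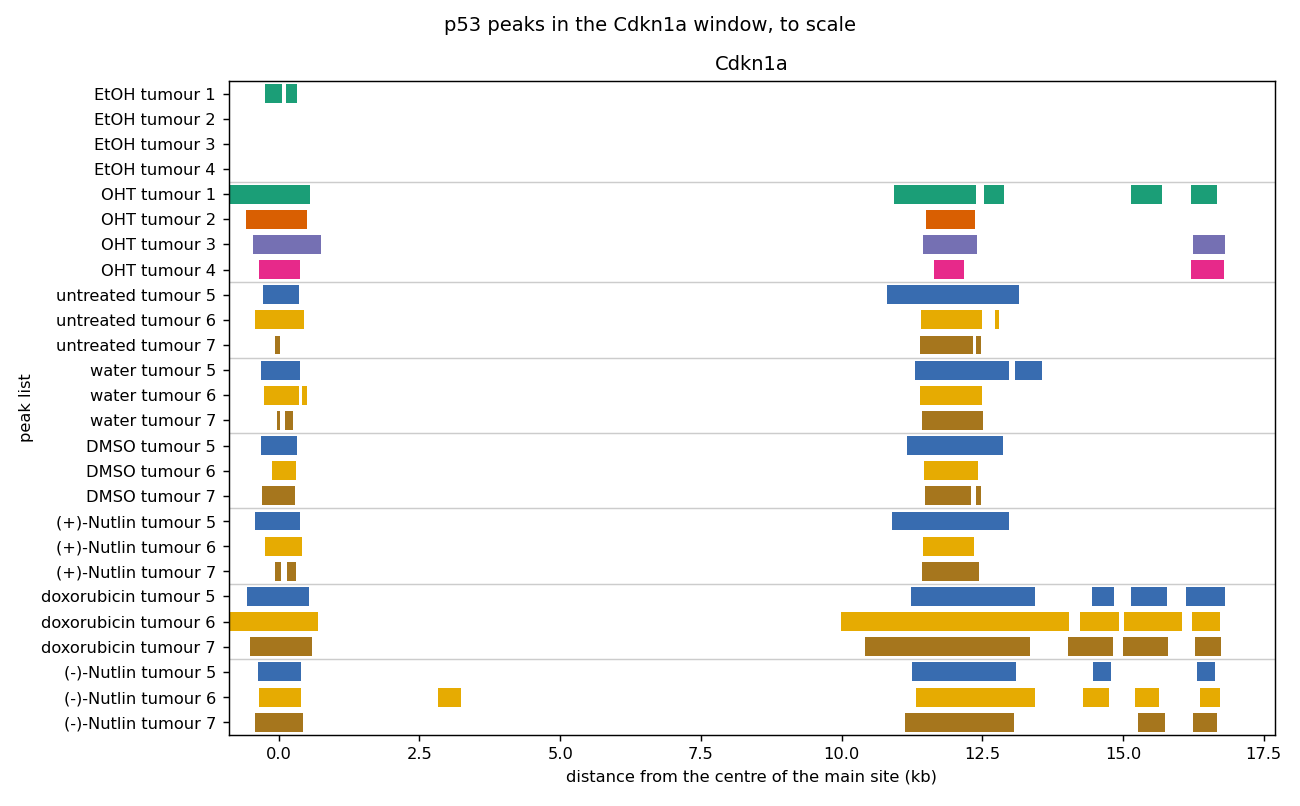
Map of p53 peaks around the most recurrent Cdkn1a site, drawn to scale; the horizontal axis is the distance from that site's centre in kb, each row is 1 list and each bar 1 peak, coloured by tumour. The 18 lists of Arf-/- tumours and the 4 OHT lists share peaks near 0 and 11.9 kb, and peaks near 16.5 kb appear in 9 OHT, doxorubicin and (-)-Nutlin lists.

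Btg2 had the largest number of sites, and they divided by condition. Covered length was 0, 0, 52 and 0 bp in EtOH lists of tumours 1 to 4 and 2631, 2705, 6212 and 4803 bp in OHT lists. In tumours 5, 6 and 7 it was 1431, 685 and 75 bp untreated, 1994, 658 and 135 bp with water, 1381, 215 and 290 bp with DMSO, and 1396, 218 and 72 bp with (+)-Nutlin. It was 4416, 5533 and 4675 bp with doxorubicin and 4170, 4342 and 4037 bp with (-)-Nutlin. All 10 OHT, doxorubicin and (-)-Nutlin lists lay above the 16 other lists, and OHT tumours 3 and 4 lay above OHT tumours 1 and 2. Base pairs under all peaks of a list separated the same way, with 1.83 to 6.53 Mb in the 10 lists and 0.015 to 1.44 Mb in the 16 others.

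The most recurrent Btg2 site was site 5, chr1:135975121-135976622, with a peak in 20 lists. All 4 OHT, 3 doxorubicin and 3 (-)-Nutlin lists had it, as did 2 untreated, 3 water, 3 DMSO and 2 (+)-Nutlin lists, and no EtOH list. Its widths were 1071, 881, 1264 and 862 bp with OHT. In tumour 5 it measured 743 bp untreated, 745 bp with water, 670 bp with DMSO and 741 bp with (+)-Nutlin, against 1186 bp with doxorubicin and 1067 bp with (-)-Nutlin. Within this tumour both activating treatments thus gave a wider peak than the 4 other conditions.

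Btg2 site 8, chr1:135997087-135998696, 21.7 kb from site 5, had a peak in 16 lists, all from Arf-/- tumours. It was called in each doxorubicin and (-)-Nutlin list and in 10 of the 12 other Arf-/- lists. None of the KI lists had it, neither the narrow EtOH lists nor the wide OHT lists. The reason was not tested. In tumour 5 it had 688 bp untreated, 894 bp with water, 711 bp with DMSO and 655 bp with (+)-Nutlin, and 589 bp with doxorubicin and 505 bp with (-)-Nutlin. The activating treatments gave the 2 narrowest peaks of the site in this tumour. In tumours 6 and 7 the order was the other way, with 1610 and 1142 bp for doxorubicin and 545 and 678 bp for (-)-Nutlin against at most 193 bp in the other lists, which are narrow.

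Of the other Btg2 sites, sites 3 and 4 were called with OHT, doxorubicin and (-)-Nutlin alone. Site 3, chr1:135961733-135962606, was present in every OHT list and in the doxorubicin and (-)-Nutlin lists of tumour 6. It had the largest excess of OHT over doxorubicin and (-)-Nutlin lists among the 18 sites, 4 of 4 against 2 of 6, with p = 0.0762 by Fisher's exact test and an adjusted p of 1. Site 4, chr1:135963658-135964389, had a peak in 4 OHT, 2 doxorubicin and 3 (-)-Nutlin lists. Site 6, chr1:135989342-135990803, was called in all 10 lists of the activating treatments and in the water list of tumour 5, with widths of 638 to 1275 bp in OHT lists.

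Sites 1, 2 and 7 of Btg2 were each called in OHT tumours 3 and 4 and not in OHT tumours 1 and 2. Site 1, chr1:135957139-135958078, had further peaks in all doxorubicin and (-)-Nutlin lists, in the EtOH list of tumour 3 (52 bp) and in the water list of tumour 6 (54 bp). Site 2, chr1:135959608-135960519, was called in 2 doxorubicin and 3 (-)-Nutlin lists, and site 7, chr1:135995614-135996186, in 3 of each and in the untreated and (+)-Nutlin lists of tumour 6. The OHT lists of tumours 3 and 4 held 10084 and 9738 peaks and those of tumours 1 and 2 held 4102 and 3597. The part of list length in this split was not tested.

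Plk2 differed from the windows above in its KI tumours. Covered length was 0 bp in all EtOH lists and 0, 0, 792 and 361 bp in the OHT lists of tumours 1 to 4. In tumours 5, 6 and 7 it was 617, 229 and 0 bp untreated, 758, 71 and 0 bp with water, 633, 0 and 0 bp with DMSO, and 700, 83 and 0 bp with (+)-Nutlin. Doxorubicin lists covered 1304, 2593 and 1424 bp and (-)-Nutlin lists 1236, 1356 and 577 bp. Tumour 7 had no Plk2 peak in any of its 4 untreated, solvent and (+)-Nutlin lists, and OHT tumours 1 and 2 had none either.

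The most recurrent Plk2 site, site 1 at chr13:111182549-111183699, had a peak in 13 lists, all from Arf-/- tumours. Each doxorubicin and (-)-Nutlin list had it, as did 2 untreated, 2 water, 1 DMSO and 2 (+)-Nutlin lists, and no KI list did. In tumour 5 it measured 617 bp untreated, 758 bp with water, 633 bp with DMSO, 700 bp with (+)-Nutlin, 860 bp with doxorubicin and 566 bp with (-)-Nutlin. The Plk2 peaks of OHT tumours 3 and 4 lay at the 2 other sites. Site 2, chr13:111184984-111186139, was called in OHT tumour 3, 3 doxorubicin and 2 (-)-Nutlin lists. Site 3, chr13:111196346-111196725, was called in OHT tumours 3 and 4, doxorubicin of tumour 6 and (-)-Nutlin of tumours 5 and 6.

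**Figure D3:**
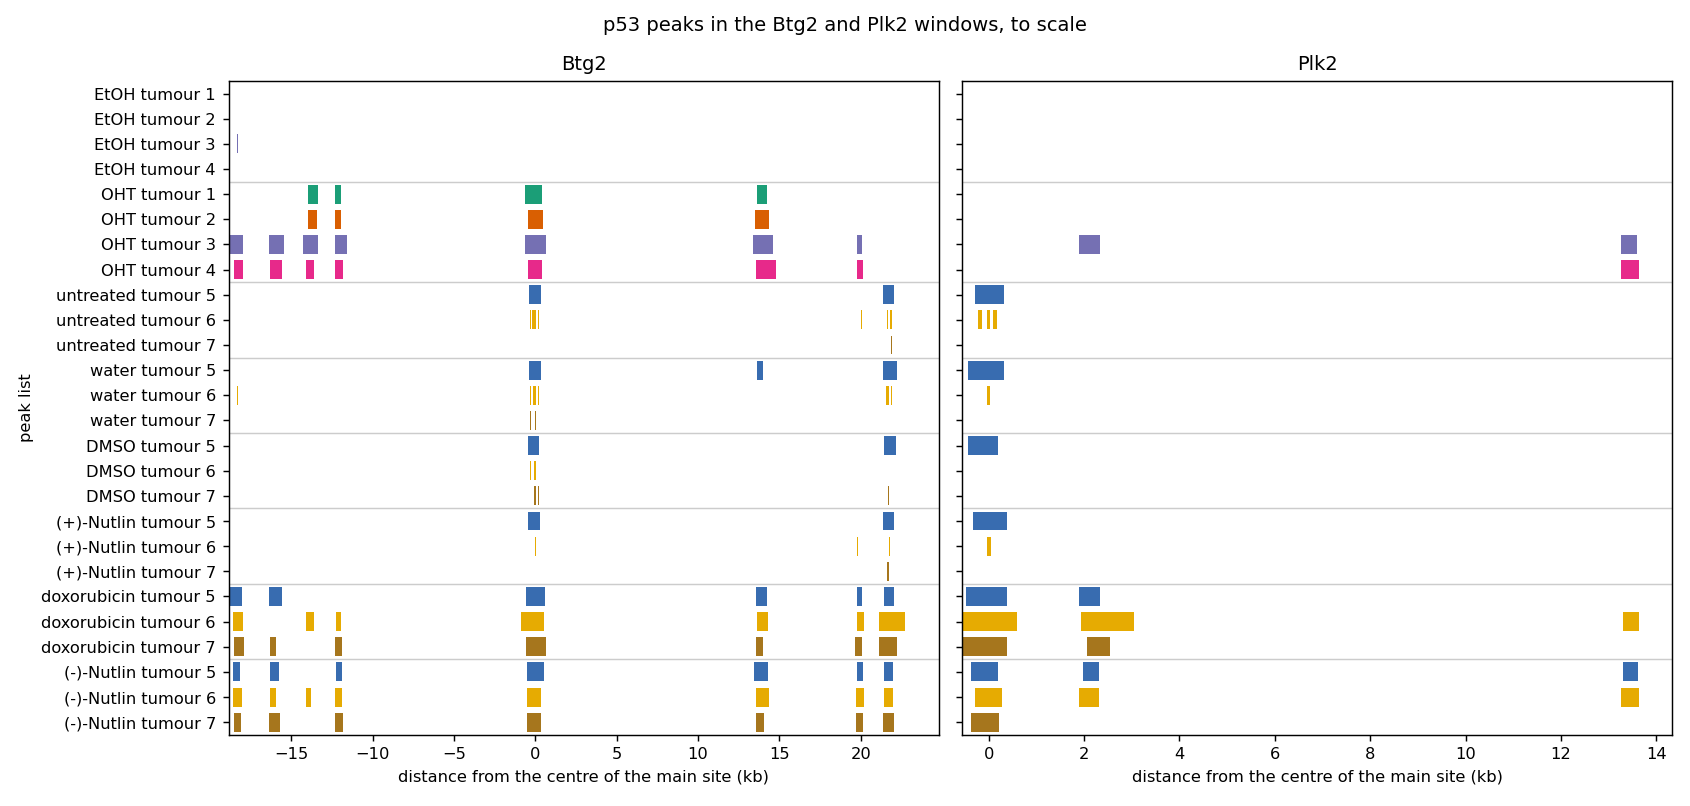
Maps of p53 peaks around the most recurrent sites of the Btg2 and Plk2 windows, drawn to scale; the horizontal axes are distances from the centre of that site in kb, each row is 1 list and each bar 1 peak, coloured by tumour. OHT lists share the Btg2 peaks at 0 kb but have none at 21.7 kb and, in the Plk2 window, none at 0 kb.

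Gadd45a was the window with the fewest peaks. Covered length was 379 and 375 bp in OHT tumours 3 and 4, 411, 878 and 519 bp with doxorubicin in tumours 5, 6 and 7, and 320 and 398 bp with (-)-Nutlin in tumours 5 and 6. It was 0 bp in the other 19 lists, and each of the 7 lists held 1 peak. These peaks lay at 2 places 8.52 kb apart. Site 2, chr6:66987256-66987666, was the more recurrent and was called in OHT tumours 3 and 4, doxorubicin of tumour 5 and (-)-Nutlin of tumours 5 and 6. Site 1, chr6:66978508-66979385, was called with doxorubicin in tumours 6 and 7. Site 2 peaks stood between the 16.9th and 44.5th percentile of width in their lists, narrower than most peaks of those lists.

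Peaks at the most recurrent site of each window overlap by the way sites were built, so their spread is given as a description. Among lists with a single peak there, which leaves out 4 Cdkn1a, 5 Btg2 and 1 Plk2 list, peak midpoints spread over 310 bp at Cdkn1a (19 lists, SD 66.6 bp), 183 bp at Btg2 (15 lists, SD 54.7 bp), 143 bp at Plk2 (12 lists, SD 49.4 bp) and 16 bp at Gadd45a (5 lists, SD 6.54 bp). The stretch common to all lists with a peak was 48 bp at Cdkn1a site 1 (chr17:29215950-29215997), 46 bp at Btg2 site 5 (chr1:135975965-135976010) and 53 bp at Plk2 site 1 (chr13:111183071-111183123).

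**Figure D4:**
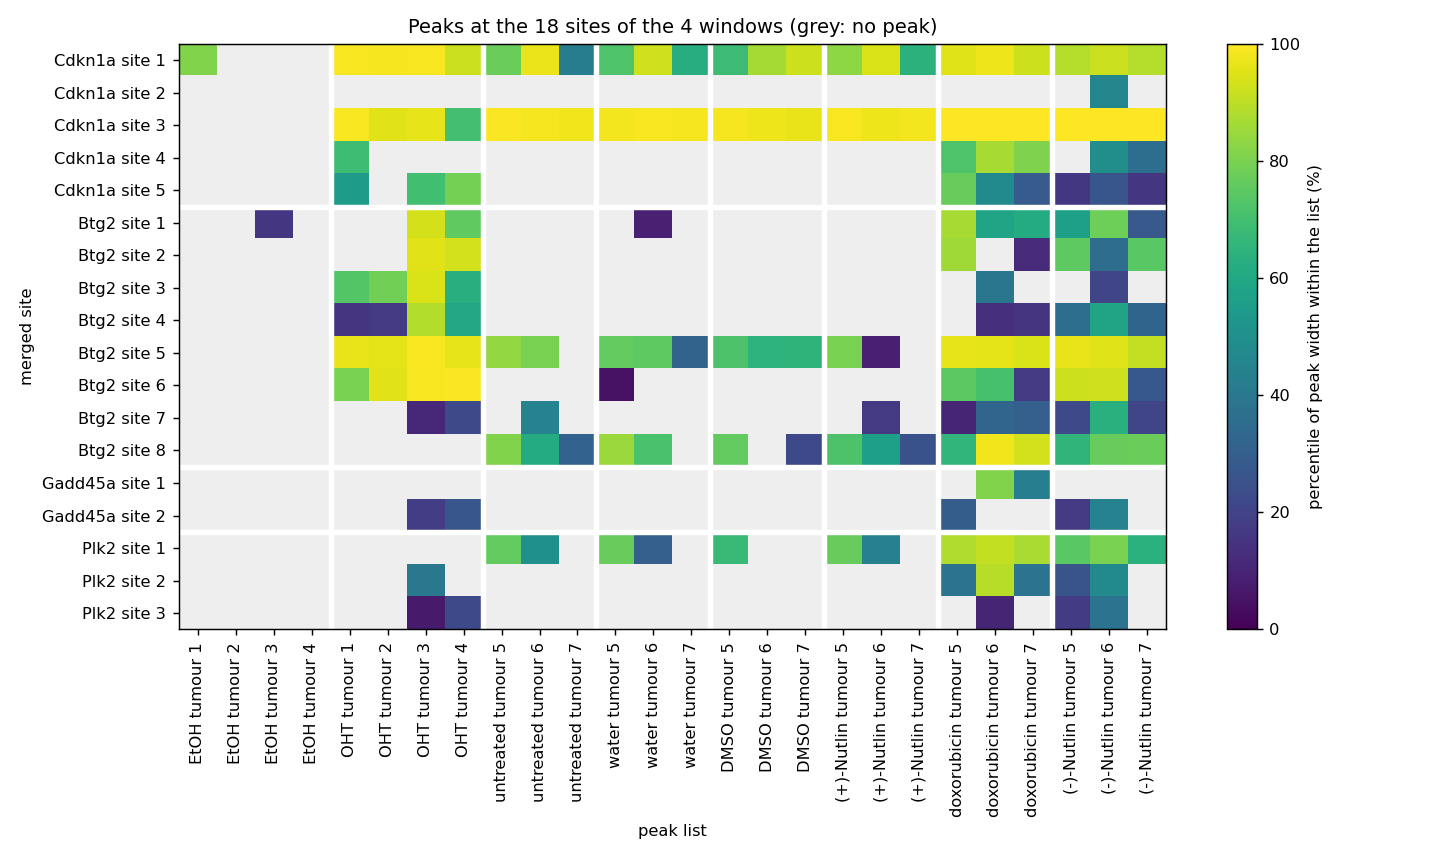
Peaks at the 18 sites (rows) in the 26 lists (columns); colour is the percentile of the widest peak's width among all peaks of that list, from 0 to 100%, and grey marks no peak. Cdkn1a sites 1 and 3 are coloured in all 18 lists of Arf-/- tumours, while both Gadd45a sites are grey outside lists of the activating treatments.

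Restoring p53 function with OHT was compared with EtOH in the KI tumours. Covered length rose at Cdkn1a from 125 ± 250 bp to 2698 ± 1122 bp (SD, n = 4 each) and at Btg2 from 13 ± 26 bp to 4088 ± 1738 bp. Both differences, 2573 bp and 4075 bp, gave a two-sided exact permutation p of 0.0286, which no 4 against 4 lists can go below, and were positive in 4 of 4 tumours. With tumours paired the exact p was 0.125 for both, the smallest that 4 pairs allow, and with any 1 tumour left out it was 0.1, the smallest for 3 against 3. The paired 95% intervals were 1152 to 3994 bp at Cdkn1a and 1343 to 6806 bp at Btg2. Gadd45a differed by 188.5 bp and Plk2 by 288 bp, both from 2 of 4 tumours, with an exact permutation p of 0.429. Over whole lists, peaks covered 1.83 to 5.35 Mb with OHT and 0.015 to 0.0686 Mb with EtOH, without overlap. A rise of the windows beyond that of whole lists was not tested. No test within 1 kind of list was possible here.

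At the level of sites, a site counts as gained where every list of the first group has a peak and no list of the second does. OHT gained 5 of the 14 window sites called in KI tumours. They were Cdkn1a site 3 and Btg2 sites 3, 4, 5 and 6. Over all sites called in KI tumours, 9.39% were gained. Fisher's exact test, adjusted by Benjamini-Hochberg, called 0 of the 12710 sites, with an unadjusted p of 0.0286 for the 1194 gained ones and an adjusted p of 0.304 for them. The count of window sites was 3 when peaks were set to 200 bp around their midpoints, and again 3 after the OHT lists were trimmed, from the narrowest peaks up, to the size of the shortest.

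In Arf-/- tumours, DNA damage by doxorubicin was compared with its control, water. Mean covered length was 6308 ± 1436 bp against 1988 ± 803 bp at Cdkn1a (SD, n = 3 each), 4875 ± 585 against 929 ± 959 bp at Btg2, 603 ± 244 against 0 bp at Gadd45a and 1774 ± 712 against 276 ± 419 bp at Plk2. The doxorubicin list exceeded the water list in 3 of 3 tumours at each window, and the groups did not overlap. Over whole lists, peaks covered 5.28 to 6.53 Mb with doxorubicin and 0.171 to 1.39 Mb with water, also without overlap. The two-sided exact permutation p was 0.1 at each window, the smallest that 3 against 3 lists allow. In tumour 5, where both lists are wide, the differences were 2140 bp at Cdkn1a, 2422 bp at Btg2, 411 bp at Gadd45a and 546 bp at Plk2. All are positive and smaller than the means over 3 tumours, which were 4320, 3946, 603 and 1497 bp. The paired 95% interval was 641 to 7250 bp at Btg2 and included 0 at Cdkn1a (-611 to 9252 bp), Gadd45a (-4.66 to 1210 bp) and Plk2 (-962 to 3957 bp).

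Doxorubicin gained 4 of the 17 window sites called in these groups, Cdkn1a sites 4 and 5, Btg2 site 7 and Plk2 site 2. The share over all sites was 18.3%, close to that of the windows. The count was 2 with peaks within 500 bp merged, 9 with 1 list of each group allowed to differ, 7 without tumour 5 and also 7 in tumour 5 alone, where it adds Btg2 sites 1 and 2 and Gadd45a site 2 to the 4 named.

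(-)-Nutlin against its solvent DMSO gave a mean covered length of 3811 ± 621 bp against 1751 ± 527 bp at Cdkn1a (SD, n = 3 each) and 4183 ± 153 against 629 ± 653 bp at Btg2. At Gadd45a the means were 239 ± 211 and 0 bp, and at Plk2 1056 ± 419 and 211 ± 365 bp. The groups did not overlap at Cdkn1a and Btg2, where the exact permutation p was 0.1, and overlapped at Gadd45a (p = 0.4) and Plk2 (p = 0.2). Over whole lists, peaks covered 3.35 to 5.25 Mb with (-)-Nutlin and 0.176 to 1.03 Mb with DMSO, also without overlap. The paired 95% interval of the difference was 1842 to 5267 bp at Btg2 and included 0 at Cdkn1a (-661 to 4783 bp), Gadd45a (-285 to 763 bp) and Plk2 (-254 to 1944 bp). In tumour 5 the difference was 916 bp at Cdkn1a and 2789 bp at Btg2. (-)-Nutlin gained 6 of 17 window sites, Cdkn1a site 5 and Btg2 sites 1, 2, 4, 6 and 7, against 28.0% of all sites. The count was 1 with peaks at least as wide as the median of all peaks and 2 with each (-)-Nutlin list cut, from its narrowest peaks up, to the size of the shortest.

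The 2 mirror-image forms of Nutlin were compared at the same dose and time. The (-) form exceeded the (+) form by 1893 bp at Cdkn1a, with a paired 95% interval from -1412 to 5198 bp, and by 3621 bp at Btg2, with an interval from 1788 to 5454 bp. These were positive in 3 of 3 tumours with an exact permutation p of 0.1. At Plk2 the difference was 795 bp (p = 0.2, exact permutation test) and at Gadd45a 239 bp (p = 0.4, exact permutation test). Within tumour 5 it was 389 bp at Cdkn1a and 2774 bp at Btg2. (-)-Nutlin gained 5 of 17 window sites over (+)-Nutlin, Cdkn1a site 5 and Btg2 sites 1, 2, 4 and 6, against 23.7% of all sites. The count was 8 without tumour 7 and 9 in tumour 5 alone, 1 with peaks at least as wide as the median of all peaks and 2 with the (-)-Nutlin lists cut as above.

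(+)-Nutlin and DMSO lists, which are of the same kind in each tumour, did not separate at any window. The difference was 167 bp at Cdkn1a, with a paired 95% interval from -749 to 1084 bp, -66.7 bp at Btg2 (-393 to 259 bp) and 50 bp at Plk2 (-59.4 to 159 bp), and both were 0 bp at Gadd45a. The exact permutation p was between 0.7 and 1. The sign at Cdkn1a turned to -12.5 bp without tumour 5 and that at Btg2 to 9 bp without tumour 7. (+)-Nutlin gained 0 of 6 window sites and 0.00% of all 2852 sites called in these groups. With 3 against 3 lists Fisher's exact test cannot give a p below 0.1, so no site reached an unadjusted p of 0.05. The intervals do not show that the 2 groups bind alike.

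Doxorubicin and (-)-Nutlin lists, all wide, were also set against each other. Doxorubicin covered 2497 bp more at Cdkn1a, with a paired 95% interval from 467 to 4526 bp. The 3 doxorubicin lists did not overlap the 3 (-)-Nutlin lists at Cdkn1a, Btg2 and Gadd45a, and overlapped them at Plk2. Whole lists did not overlap either, with 5.28 to 6.53 Mb against 3.35 to 5.25 Mb under peaks. The differences were 692 bp at Btg2 (interval -488 to 1871 bp), 363 bp at Gadd45a (-225 to 951 bp) and 717 bp at Plk2 (-761 to 2196 bp). The exact permutation p was 0.1 at Cdkn1a, Btg2 and Gadd45a and 0.2 at Plk2, where the smallest possible was 0.1. In tumour 5 the Btg2, Gadd45a and Plk2 differences were 246, 91 and 68 bp, and the Btg2 difference changed sign, to -133 bp, with peaks set to 200 bp around their midpoints. Doxorubicin gained 0 of 18 window sites over (-)-Nutlin, against 2.62% of all sites, and 1 without tumour 5, Gadd45a site 1.

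Taking the 6 doxorubicin and (-)-Nutlin lists against the 12 other lists of Arf-/- tumours, covered length rose in all 4 windows. Whole lists rose too, with 3.35 to 6.53 Mb under peaks in the 6 lists and 0.148 to 1.44 Mb in the 12 others. A rise of the windows beyond that of whole lists was not tested. Mean covered length was 5060 ± 1688 bp (SD, n = 6) against 1921 ± 685 bp (SD, n = 12) at Cdkn1a and 4529 ± 538 against 713 ± 667 bp at Btg2. It was 421 ± 285 against 0 bp at Gadd45a and 1415 ± 654 against 258 ± 318 bp at Plk2. The two-sided exact permutation p was 5.39e-05 at Cdkn1a and Btg2, the smallest possible, 0.0007 at Gadd45a and 0.000269 at Plk2. Permuting within tumours gave 0.000296 at Cdkn1a, Btg2 and Plk2 and 0.00148 at Gadd45a. The 18 lists share 3 tumours and are not independent samples. Over the 3 tumours as pairs, the 95% interval of the difference was 1480 to 6153 bp at Btg2, and it included 0 at Cdkn1a (-829 to 7106 bp), Gadd45a (-64.0 to 906 bp) and Plk2 (-475 to 2790 bp). In tumour 5 the differences were 1368 bp at Cdkn1a, 2743 bp at Btg2, 365.5 bp at Gadd45a and 593 bp at Plk2, all in the same direction among wide lists. With peaks at least as wide as the median of all peaks, Gadd45a differed by 233 bp and its exact permutation p was 0.098.

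Per site, Fisher's exact test, Benjamini-Hochberg adjusted over all sites, called 8 of the 18 window sites more often in these 6 lists, against 34.7% of all 17090 sites tested. They were Cdkn1a sites 4 and 5, Btg2 sites 1, 2, 4, 6 and 7 and Plk2 site 2. Cdkn1a site 5, with a peak in 6 of 6 against 0 of 12 lists, had an adjusted p of 0.00125 in Fisher's exact test. The same test gave 6 others 0.00451 and Btg2 site 7 0.00871. Gadd45a site 2 and Plk2 site 3, each with 3 of 6 against 0 of 12 lists, had an adjusted p of 0.0511. With permutation within tumours these 2 sites also passed, with an adjusted p of 0.0492, which makes 10 window sites against 45.2% of all sites. Cdkn1a sites 1 and 3 were present in all 18 lists. The count was 4 without tumour 5, 4 without tumour 6, 2 without tumour 7 and 3 with the doxorubicin and (-)-Nutlin lists cut to the length of the shortest.

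The comparison of the 6 doxorubicin and (-)-Nutlin lists with the 4 OHT lists was added after the data were seen, because all 10 lists are wide. Genotype, time of treatment and agent differ together between these groups and cannot be told apart. Whole lists differ too, with 3.35 to 6.53 Mb under peaks in the 6 lists and 1.83 to 5.35 Mb in the OHT lists. A difference of the windows beyond that of whole lists was not tested. Btg2 site 8 and Plk2 site 1 had a peak in 6 of 6 against 0 of 4 lists, which makes 2 of 18 window sites against 1.64% of all sites. Fisher's exact test gave both p = 0.00476, the smallest possible, and an adjusted p of 0.288. Covered length at Plk2 was 1415 ± 654 bp (SD, n = 6) against 288 ± 376 bp (SD, n = 4), with an exact permutation p of 0.019, and at Cdkn1a 5060 ± 1688 against 2698 ± 1122 bp, with p = 0.0429. The Plk2 p became 0.0571 without tumour 5 or tumour 6. At Cdkn1a it was 0.0571 to 0.114 when any tumour but tumour 1 was left out, with exact permutation each time. Btg2 (441 bp, p = 0.586) and Gadd45a (232.5 bp, p = 0.195) did not pass the exact permutation test, and the Btg2 sign changed without tumour 1 or tumour 2. The widest peak at Cdkn1a site 1 was 1020 ± 315 bp in the 6 lists and 1115 ± 299 bp in the OHT lists (exact permutation p = 0.662).

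Recurrence within a treatment can be read against the whole series. Of the 18 window sites, 0 had a peak in every EtOH list, where 0.0581% of all sites did, and 6 had one in every OHT list, against 8.61%. These were Cdkn1a sites 1 and 3 and Btg2 sites 3, 4, 5 and 6. For untreated, water, DMSO and (+)-Nutlin lists the window count was 3 each, against 2.10%, 2.31%, 2.11% and 1.98% of all sites. Cdkn1a sites 1 and 3 were among the 3 each time, joined by Btg2 site 8 in untreated and (+)-Nutlin lists and by Btg2 site 5 in water and DMSO lists. Every doxorubicin list had a peak at 11 window sites, against 25.5% of all sites, and every (-)-Nutlin list at 11, against 27.1%. The 4 sites with a peak in each of the 10 lists of the activating treatments were Cdkn1a sites 1 and 3 and Btg2 sites 5 and 6, against 5.76% of all sites. The windows were chosen around known p53 targets with earlier results of these data in view, so these counts describe them and are not independent support.

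The sites elsewhere whose pattern was most like that of each main site were found by Pearson's r, over the 26 lists, of the width percentile within each list (0 where no peak). The points share tumours, list kind and list length, and r is given as a description. For Cdkn1a site 1 they were chr7:52721013-52722713 (r = 0.954) and chr11:40567941-40569754 (r = 0.944), each called in 23 lists. For Btg2 site 5 they were chr2:158620106-158621324 (r = 0.953) and chr5:30417191-30418918 (r = 0.932), each called in 20 lists. Gadd45a site 2 was most like chr14:99498631-99499320 (r = 0.987) and chr1:185857942-185858414 (r = 0.981), and Plk2 site 1 most like chr3:102569421-102570832 (r = 0.966) and chr6:114716655-114718151 (r = 0.961).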

How the data were processed

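The data were 26 p53 ChIP-seq peak lists (antibody CM5p) from 7 lymphomas, and the 7 input libraries of the 33 were not used. Chromatin was sonicated to fragments averaging 250 bp, per the labels' protocols. The authors named BWA 0.6.2, SAMtools and mm9, per the submitters' processing notes. How peaks were called, and whether inputs entered, is not given in the sources used here. Each deposited list holds the chromosome, start and end of each peak, called per library, in bp and with no score, so that read depth is unknown.

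Coordinates are mm9, counted from 1. Peaks of all 26 lists were merged into sites where they shared at least 1 bp. Covered length per window was compared by two-sided exact permutation over lists (32 tests, p not adjusted over windows). A paired interval assumes normal differences between tumours. Fisher's exact test per site was adjusted over all sites (Benjamini-Hochberg, threshold 0.05). A gained site had a peak in every list of the first group and none of the second. The most recurrent site of each window was described in full, with the 2 most similar sites elsewhere. Pairing comes from the tumour number in the titles. As a check, deviations from the group means correlated at 0.434 to 0.579 between DMSO and (+)-Nutlin lists of the same tumour and at -0.458 to 0.140 between different tumours. These lists are also of the same kind in each tumour, and the part of kind was not tested. In the other comparisons the values were -0.110 to 0.140 for the same tumour and -0.145 to 0.137 for different tumours, so there the check did not set same-tumour lists apart. Members and lists were chosen with earlier results of these data known. The comparison of doxorubicin and (-)-Nutlin with OHT, and site counts in tumour 5 alone, were added after seeing the data. Other arrest genes needed an mm9 annotation and were not analysed here. Promoter sequences are RefSeq's, build GRCm38.p6, matched by symbol for all 4 genes. The code (Python 3.11.15, NumPy 2.4.6, pandas 2.3.3, SciPy 1.17.1, matplotlib 3.10.9) was tested on simulated lists.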

Additional observations from a re-analysis of the deposited data

Results flagged for a closer look

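In 6 tests of whether 1 list of a KI group lies far from the other 3, 2 values stood out. The measure picks about 1 group in 20 by chance, but that rate does not apply here: with the other 3 lists at 0 bp, any single peak would stand out. The EtOH list of tumour 1 covered 500 bp in the Cdkn1a window, where the other 3 EtOH lists had no peak. The EtOH list of tumour 3 covered 52 bp in the Btg2 window, again against 0 bp in the other 3. The first is 2 peaks at the site that all OHT lists share, and the second is 1 peak at Btg2 site 1.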

How the results depend on the processing

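Read depth is unknown and the lists hold no score, so a missing peak shows only that none was called, and the kind of list moves with treatment outside tumour 5. With the tumour as replicate block, OHT against EtOH gave p = 0.125 at Cdkn1a (2573 bp) and Btg2 (4075 bp) by exact sign changes. The block changed no other covered-length call. With 3 against 3 lists no such call was possible with or without it. For the 6 against 12 lists the calls at every window held with the block. Per site it called 10 window sites for the 6 doxorubicin and (-)-Nutlin lists against the 12 other Arf-/- lists, where 8 were called without it (Gadd45a site 2 and Plk2 site 3 were added). Leaving out tumours gave exact permutation p of 0.1 with 2174 to 2815 bp at Cdkn1a and 3380 to 4556 bp at Btg2. Each is a p at the smallest the design allows.

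Peaks of 200 bp around midpoints gave 3 gained sites for OHT, Cdkn1a differences of 550 bp for OHT against EtOH and 317 bp for doxorubicin and (-)-Nutlin against OHT (exact permutation p = 0.0571 both), and -133 bp at Btg2 for doxorubicin against (-)-Nutlin. Peaks at least as wide as the median gave 1 gained site for (-)-Nutlin against DMSO, 1 against (+)-Nutlin and 1 for doxorubicin against (-)-Nutlin. They also gave 5 bp at Btg2 for (+)-Nutlin against DMSO, 233 bp at Gadd45a for the 6 against 12 lists (exact permutation p = 0.098), and against OHT 2013 bp at Cdkn1a (exact permutation p = 0.0952) and -123 bp at Btg2. Lists cut to the shortest gave 3 gained sites for OHT, 2 for (-)-Nutlin against DMSO, 2 against (+)-Nutlin, 3 called sites for the 6 against 12 lists and 1 for the comparison with OHT. Peaks within 500 bp merged gave 2 for doxorubicin against water. With 1 list of each group allowed to differ the gained counts were 9 for doxorubicin against water, 11 for (-)-Nutlin against DMSO, 10 against (+)-Nutlin, 1 for (+)-Nutlin against DMSO, 1 for doxorubicin against (-)-Nutlin and 4 against OHT. Against OHT, Btg2 also reversed with width percentiles (-2.60 points) and with the window narrowed by 5 kb at each end (-635.5 bp).

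Tumour 5 alone gave 7 gained sites for doxorubicin against water, with 2140, 2422, 411 and 546 bp at Cdkn1a, Btg2, Gadd45a and Plk2. It gave 916 and 2789 bp at Cdkn1a and Btg2 for (-)-Nutlin against DMSO, and 9 gained sites with 389 and 2774 bp against (+)-Nutlin. For (+)-Nutlin against DMSO it gave 15 bp at Btg2. For doxorubicin against (-)-Nutlin it gave 1 gained site and 246, 91 and 68 bp at Btg2, Gadd45a and Plk2, and for the 6 against 12 lists 1368, 2743 and 593 bp at Cdkn1a, Btg2 and Plk2.

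Leaving out each tumour gave 4 to 7 gained sites for doxorubicin against water, 6 to 8 for (-)-Nutlin against (+)-Nutlin, 0 to 1 for doxorubicin against (-)-Nutlin and 2 to 4 called sites for the 6 against 12 lists. (+)-Nutlin against DMSO ranged from -12.5 to 356 bp at Cdkn1a and from -107.5 to 9 bp at Btg2. Against OHT the range was 1808 to 2886 bp at Cdkn1a, -44.5 to 1149 bp at Btg2 and 847 to 1334 bp at Plk2, and Btg2 was -19.8 bp without tumour 2. The causes of these changes were not tested. Among covered lengths, 186 of 212 values under other settings kept their direction and side of the threshold, or moved by less than the spread, while 14 moved, 6 reversed and 6 lost the threshold. With a tumour left out 96 of 116 did, 4 reversed and 16 lost the threshold. Comparisons of 3 against 3 lists allow no exact permutation p below 0.1, so none of their values could cross the threshold. For them these tallies show direction only and do not measure stability of a call.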
